A study of Mus musculus with 55 samples.

Results

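In mouse bone marrow, the B cell precursors called small pre-BII cells were set against the stage before them, large pre-BII cells. Small pre-BII cells were 5 preparations (sorts 1, 3, 8, 9 and 10) and large pre-BII cells 5 preparations (sorts 1, 2, 8, 9 and 10), together 10 of the 26 preparations and 21 of the 55 arrays of the series. The arrays of each population were taken by their titles. Both populations came from the same gate, B220+ CD25+ cells without surface immunoglobulin, and the labels divide them by size. The other populations of the series are pre-BI cells (B220+ c-kit+, 6 preparations), immature B cells (B220low sIgM+, 5) and mature B cells (B220hi sIgM+, 5). The labels give no strain, age, sex, genotype or treatment of the mice, and nothing in them says whether sorts came from separate or pooled animals. The p-values therefore measure spread among these preparations only, and part of it may be technical.

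As background, a pre-BI cell that has joined a heavy chain gene in frame places that chain on its surface with the surrogate light chain, as a pre-B cell receptor. Signals from that receptor and from the interleukin 7 receptor drive several divisions, in which the cell is a large pre-BII cell. The cell then leaves the cell cycle, becomes a small pre-BII cell, makes the RAG recombinase again and opens its kappa or lambda light chain locus. A cell whose light chain pairs with its heavy chain displays IgM and becomes an immature B cell.

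Total RNA of each preparation was read on 2 oligonucleotide arrays with different probe sets, here the first set (27 arrays used) and the b set (27). The level given for a gene is the mean normalised intensity of its brightest probe set in a preparation, in arbitrary units that cannot be compared between genes. Intensities below 0 were common, so a noise limit of 2 robust standard deviations of the negative values was set, 251 for the first array set and 319 for the second, b, and 40.02% and 20.1% of values exceeded it. Folds and log2 differences (small minus large, ± SE, n = 5 each) were taken between means of log2 values raised to that limit, and a fold is written "at least" where all preparations of the dimmer population stayed at or under it. The log2 difference of such a gene is a bound too. Its SE holds the spread of the brighter population only, since values set to the limit have none. "Rose", "fell" and "changed" are used of genes with an adjusted p under 0.05 in 1 limma fit of all 26 preparations, with Benjamini-Hochberg adjustment over 10229 tested probe sets. In bulk RNA, fewer cells of a type and less RNA per cell cannot be told apart.

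The marker genes of the comparison separated the populations. Iglc1, a constant region gene of the lambda light chain, read 5305, 5694, 7612, 3903 and 4534 in small pre-BII sorts 1, 3, 8, 9 and 10, against 439, 229, 397, 252 and 299 in large pre-BII sorts 1, 2, 8, 9 and 10. The lowest small preparation lay far above the highest large one, and large sort 2 did not exceed the noise limit. Iglc1 rose 16.5-fold (log2 difference 4.05 ± 0.23 SE, adjusted p = 7.36e-12), by 16.5-fold within sorts 1 to 3 and 16.5-fold within sorts 8 to 10. Lambda constant region genes are near copies of each other in mice, so the probe set may read more than one of them.

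Rag1, the catalytic subunit of the V(D)J recombinase, read 6221, 5247, 2938, 3313 and 8190.4 in small pre-BII cells and 1334, 961, 776, 762 and 2202 in large pre-BII cells, in the same order of sorts. Sort 10 was the highest and sorts 8 and 9 the lowest in both populations, without overlap between them. Rag1 rose 4.35-fold (log2 difference 2.12 ± 0.40 SE, adjusted p = 7.56e-05). Prc1, a microtubule bundler of the central spindle needed for cytokinesis, read −63.3, −12.4, 109.6, 112 and −80.9 in small pre-BII cells, against 3399, 2693, 2964, 3397 and 3586 in large pre-BII cells. No small preparation exceeded the noise limit, while the large preparations lay close together. Prc1 fell with a log2 difference of −3.67 ± 0.08 SE, at least 12.7-fold (adjusted p = 6.89e-15).

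**Figure D1:**
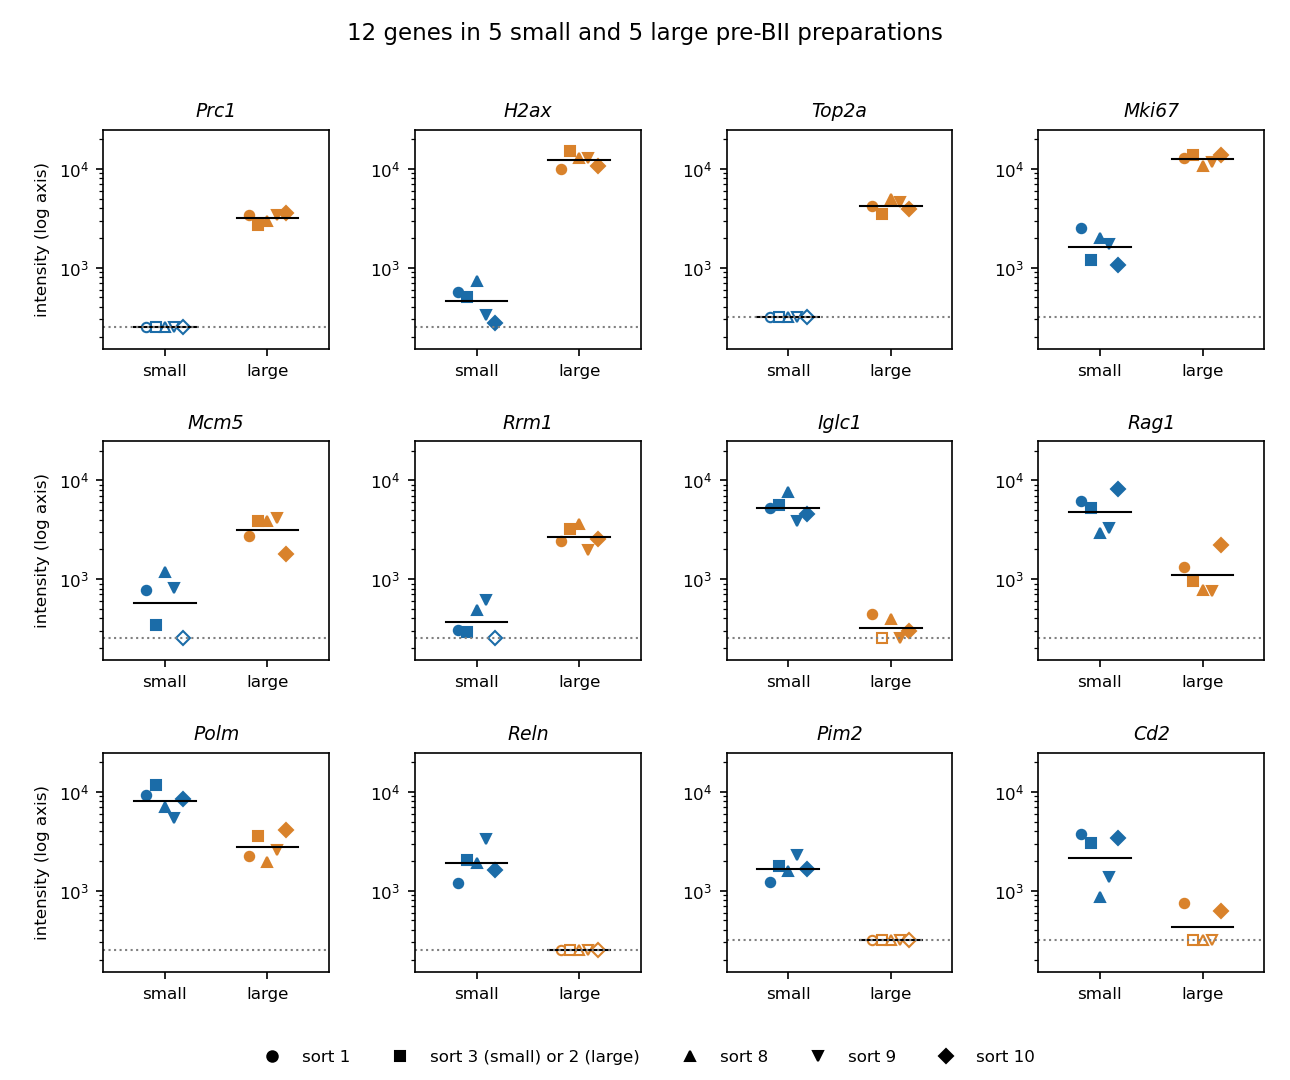
Normalised intensity (log axis) of 12 genes in the 5 small pre-BII preparations (blue, left) and the 5 large pre-BII preparations (orange, right), with symbols for the sort. Open symbols are values at or under the noise limit, drawn at the limit (dotted line), and black lines are means of log2 values; no symbol of small cells overlaps one of large cells in any of the 12 panels.

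Ptprc, which encodes CD45 and its B220 form, read 5199.6, 3860.5, 4013, 4993 and 4252 in small pre-BII cells and 2824, 3405, 2282, 2436 and 2779 in large pre-BII cells. The ranges did not overlap, and Ptprc rose 1.63-fold (log2 difference 0.70 ± 0.13 SE, adjusted p = 0.00318). Il2ra, which encodes CD25, exceeded the noise limit only in small sort 1, at 437, and Kit, the receptor c-kit that marks pre-BI cells, in no preparation of either population, so the CD25 gate itself could not be checked on these arrays. Ighm, the mu heavy chain gene, read 15059, 15265, 10126, 13534 and 17423 in small cells and 13614, 11663, 13238, 12681 and 11994 in large cells, with overlapping ranges (adjusted p = 0.667).

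Of 10229 probe sets 570 changed (5.57%), 239 of them higher (2.34%) and 331 lower (3.24%) in small pre-BII cells. With the values as deposited, before normalisation, 201 changed, of which 20.9% were higher, against 41.9% after normalisation. On 1 probe set per gene, 152 of 5019 tested genes rose (3.03%) and 203 fell (4.04%), 7.07% in all. The median fold was 2.10 for the risen probe sets and 2.52 for the fallen ones, and 20 changed probe sets lay under the noise limit in both populations. All 570 had the same sign within sorts 1 to 3 and within sorts 8 to 10. They were chosen for the difference over these same preparations, which favours such agreement. Genes that passed, differed at least 2-fold and did not overlap between preparations numbered 70 higher and 126 lower. Without the other conditions, 2.65% of genes lay higher and 3.49% lower with no overlap at the noise limit, 6.14% in all.

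The 15 largest falls were led by H2ax, the histone variant that is phosphorylated at DNA breaks. H2ax read 573, 506, 736, 333 and 273 in small pre-BII cells, against 10018, 15265, 13036, 12847 and 10674 in large pre-BII cells. The dimmest large preparation lay far above the brightest small one, and H2ax fell 26.9-fold (log2 difference −4.75 ± 0.28 SE, adjusted p = 3.88e-08). A second H2ax probe set, above the noise limit in all 10 preparations, fell 7.09-fold. Nusap1, a microtubule bundler of the mitotic spindle, read −166, 96.1, 672, 609.6 and −6.48 in small cells and 7257, 6003, 7678, 8543 and 7208 in large cells. Only small sorts 8 and 9 exceeded the noise limit, and Nusap1 fell 20-fold (log2 difference −4.32 ± 0.34 SE, adjusted p = 5.14e-08). Top2a, the topoisomerase that untangles sister chromatids, read 41.7, −76.7, −74.6, 308 and −152 in small cells, all under the limit, and 4168, 3511, 4955, 4629.8 and 3922 in large cells, and fell with a log2 difference of −3.72 ± 0.09 SE, at least 13.2-fold (adjusted p = 1.95e-06).

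The other 11 of these falls, beside Prc1, were between 9.23- and 12.2-fold. They held 4 genes of the cytokinesis and chromosome passenger machinery: Racgap1 (12.2-fold, a component of centralspindlin), Anln (10.8-fold, an organiser of the cleavage furrow), Incenp (11.5-fold) and Aurkb (10.3-fold), which encode the scaffold and the kinase of the chromosomal passenger complex. A second probe set of Incenp was under the limit in both populations, and one of Anln fell 2.92-fold. Ccna2 (cyclin A2, log2 difference −3.58 ± 0.18 SE), Cks1b (11.9-fold) and Cks2 (9.23-fold), whose products bind cyclin-dependent kinases, and the centrosome kinase gene Nek2 (10.6-fold) were among them. So were Cenpl (10.9-fold), which encodes a centromere protein, Tuba1a (12.2-fold), an alpha tubulin gene with near-identical copies, and Hmgb2 (10.6-fold), a chromatin protein that also bends DNA for the RAG recombinase.

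Genes of mitosis fell nearly as a block. Of 13 tested genes of mitotic kinases and the spindle checkpoint 12 fell, of 17 spindle, kinetochore and cytokinesis genes 15, of 13 mitotic cyclin and destruction genes 8, and of 15 chromosome and centromere genes 11, and none of the 58 rose. Across these 4 lists 46 of 58 tested genes fell, against 4.04% of all genes, with a median fitted log2 difference of −2.69 beside 0.06 over all genes. The lists hold 60 genes on the arrays, and 2 of them were not tested. Kpna2, a spindle list gene, did not pass by its brightest probe set (adjusted p = 0.153) but fell 15.8-fold by another (adjusted p = 1.3e-07). For 14 of the 46 no small preparation exceeded the noise limit, so their folds are bounds.

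Mki67, the gene of the proliferation antigen Ki-67, read 2503, 1196, 1985, 1727 and 1069.6 in small pre-BII cells, against 12845, 13749, 10683, 11784 and 13959 in large pre-BII cells. Small sort 1 was the brightest and sort 10 the dimmest of the small preparations, all well above the noise limit, and Mki67 fell 7.77-fold (log2 difference −2.96 ± 0.24 SE, adjusted p = 9.97e-10). Cdk1, the kinase that starts mitosis, read 1592, 663, 1859, 2194 and 902 in small cells and 10218, 7896, 9962, 10949 and 8190.4 in large cells and fell 7.14-fold (log2 difference −2.84 ± 0.34 SE, adjusted p = 2.85e-08). Kifc1, a minus-end spindle motor gene, fell at least 6.03-fold.

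Aurkb read 164, 306, 859, 1199 and 243 in small cells, with sorts 8 and 9 highest, and 3055, 7185, 6593, 4509 and 3479 in large cells. Its fold was 16.9 within sorts 1 to 3 and 7.36 within sorts 8 to 10. Cks1b, which read 101, 682, 1188, 959 and 430.0 in small cells and 6746, 6802, 7367, 9572 and 6073 in large cells, was likewise brightest in small sorts 8 and 9.

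Among kinases Aurka, which works at the spindle poles, fell 8.27-fold, and Bub1, Ttk and Melk, which all lay under the noise limit in every small preparation, fell at least 1.82-, 2.19- and 1.83-fold. Bub3, a partner of Bub1 in the spindle checkpoint, fell by a smaller 2.51-fold (2269 in small cells, 5656 in large cells), by 1 of its other 2 probe sets too. Plk1, a kinase of mitotic entry and exit, fell 2.87-fold with an adjusted p of 0.0485, and that call was lost in 7 of 10 fits that left out 1 preparation (adjusted p up to 0.149, without small sort 8). The tubulin genes Tubb5 (7.86-fold) and Tubb4b (7.13-fold) and Stmn1 (8.62-fold), whose product destabilises microtubules, fell with the motor gene Kif2c (7.15-fold). Of the condensin and cohesin genes Smc2 fell 8.14-fold, Smc4 6.36-fold and Ncaph 5.91-fold, while Rad21, a cohesin subunit, did not pass (4868 in small cells and 8813 in large cells, adjusted p = 0.127). Ube2c, the ubiquitin-conjugating enzyme of the anaphase-promoting complex, fell at least 5.31-fold, Ccnb2, a mitotic cyclin gene, 5.43-fold, and Cdkn3, a phosphatase gene, 6.99-fold.

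DNA replication genes fell in most cases and none of those tested rose. Of 13 tested genes of origin licensing and firing 9 fell, of 15 polymerase and fork genes 10 and of 12 nucleotide synthesis genes 6, together 25 of 40, against 4.04% of all genes, with a median fitted log2 difference of −1.67. The minichromosome maintenance genes encode the helicase loaded at origins. Mcm5 read 779.8, 342, 1175, 812 and 118 in small pre-BII cells, against 2715, 3877, 3922, 4139.9 and 1813 in large pre-BII cells. Small sort 10 was under the noise limit and large sort 10 was the dimmest large preparation, and Mcm5 fell 5.46-fold (log2 difference −2.45 ± 0.48 SE, adjusted p = 0.00509). Mcm2 read 880.4, 567, 241, 398 and 332 in small cells and 1486, 2767, 2249, 1825 and 8266 in large cells. The groups did not overlap, but large sort 10 was far above the other large preparations, and the fold was 2.87 within sorts 1 to 3 and 10.1 within sorts 8 to 10 (6.09-fold, log2 difference −2.61 ± 0.53 SE, adjusted p = 1.71e-05 over all).

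Mcm3, Mcm6, Mcm7 and Mcm10 fell 3.49-, 5.03-, 5.33- and at least 4.55-fold. Mcm4, another tested gene of this family, did not pass. Rrm1, which encodes the large subunit of the enzyme that reduces ribonucleotides to deoxynucleotides, read 302, 288, 485, 618 and 246 in small cells and 2456, 3188, 3602, 1954 and 2522 in large cells, without overlap, and fell 7.33-fold (log2 difference −2.87 ± 0.29 SE, adjusted p = 1.18e-05). Its partner Rrm2 fell 5.45-fold by its brightest probe set, 9.89-fold and 2.77-fold by others, and a dim one passed with 1 large preparation above the noise limit. The thymidine kinase gene Tk1 fell at least 4.49-fold. Rrm2 read 1775, 720.4, 3405, 4139.9 and 581 in small cells, highest in sorts 8 and 9, and 7185, 9873, 12317, 8109 and 7089.6 in large cells. Pcna, the sliding clamp of replication and repair, fell by less: it read 2244, 1840.2, 2718, 3104 and 1538 in small cells and 4199, 5966, 4806, 5068 and 4025 in large cells (2.15-fold, log2 difference −1.10 ± 0.21 SE, adjusted p = 0.000115). Prim1, a primase subunit, fell 5.82-fold and Lig1, the ligase that joins Okazaki fragments, 5.69-fold.

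Histone variant and chromatin assembly genes fell with them, 13 of 21 tested, against 4.04% of all genes, with a median of −1.67. They included the variants H2az1 (3.13-fold) and H2az2 (3.4-fold), Slbp (4.55-fold), which binds the ends of replication histone messages, Asf1b (4.66-fold), a histone chaperone, and Dnmt1 (at least 3.59-fold), which copies DNA methylation after replication. Suz12, a Polycomb subunit, fell 3.3-fold by its brightest probe set, while its other 3 did not pass and 1 of them was higher in small cells. Cbx5, of the same list, did not pass by its brightest probe set (adjusted p = 0.22) but fell at least 1.31- and 2.1-fold by others. The fall of Chaf1b, a chromatin assembly gene, was lost in 9 of 10 fits that left out 1 preparation. Of 11 tested homologous recombination and repair genes 2 fell, against 4.04% of all genes. They were Rad54l (at least 2.89-fold) and Brca1 (at least 1.93-fold), both under the noise limit in every small preparation.

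**Figure D2:**
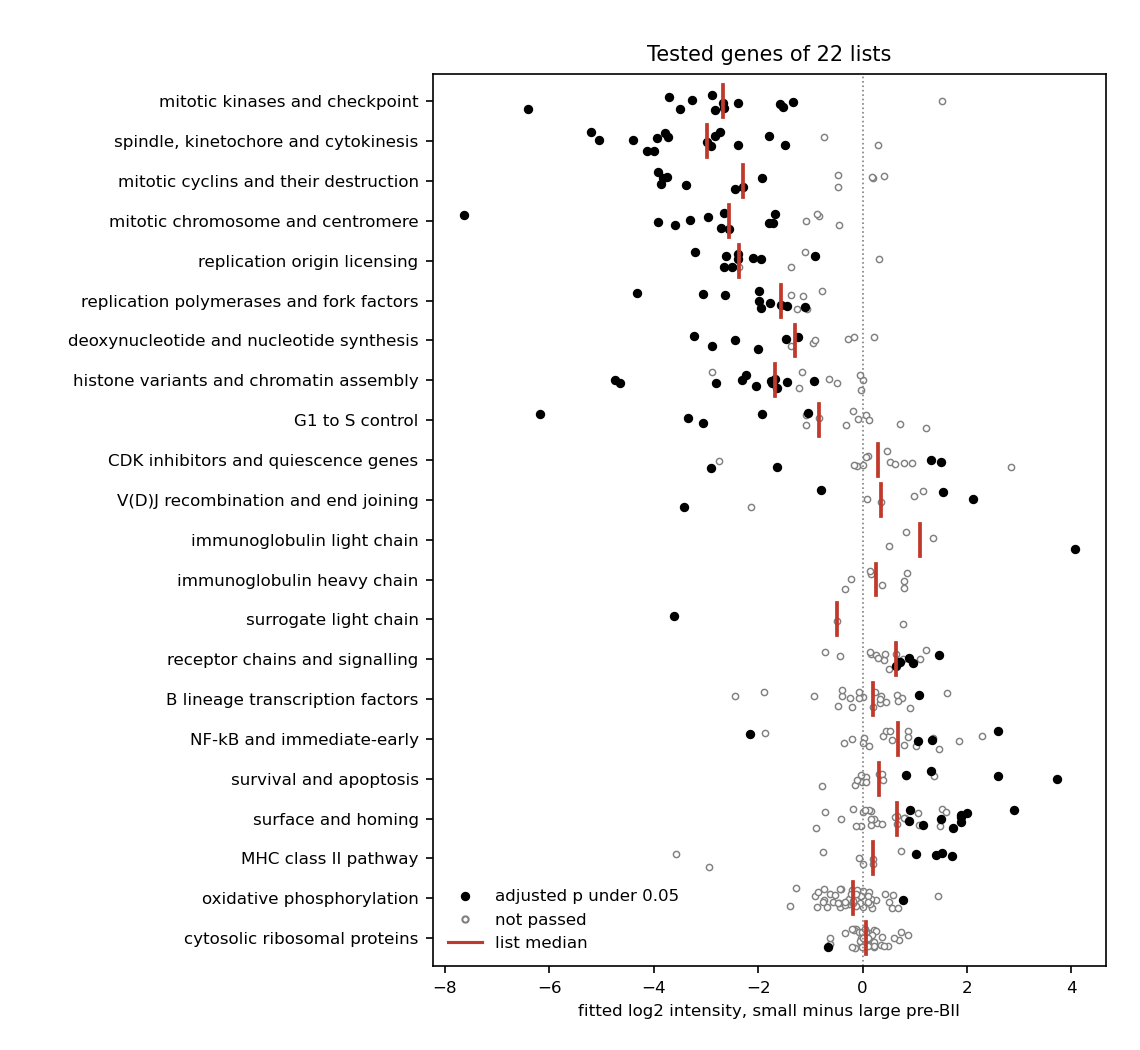
Fitted log2 difference, small minus large pre-BII (x axis), of every tested gene in 22 gene lists (rows); filled points passed at an adjusted p under 0.05, open points did not, and red bars are list medians. The 4 mitotic lists have medians between −2.97 and −2.29, while ribosomal protein genes centre at 0.06.

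Promoters of these genes are shown because mitotic and replication genes are known to share short promoter elements: the CCAAT box bound by NF-Y, the TTTGAA element bound by the MuvB complexes that repress and activate mitotic genes, and E2F sites. In 250 bases upstream of the RefSeq start (GRCm38.p6), 38 of the 46 mitotic genes that fell and 25 of the 25 replication genes that fell matched an entry by symbol, the first listed start of each gene being used. CCAAT or its reverse complement ATTGG stood in 28 of 38 mitotic promoters (73.7%) and 17 of 25 replication promoters (68.0%), and in 34.5% of 27025 promoters of all genes. At least 2 copies stood in 52.6% of the mitotic, 32.0% of the replication and 10.5% of all promoters. TTTGAA, read on either strand, stood in 34.2% of the mitotic promoters, 3 of 25 replication promoters and 16.3% of all promoters. For E2F the letters TTCCCGC, the alternative form TTGGCGC and both reverse complements were searched, and 7.89% of the mitotic, 36.0% of the replication and 5.71% of all promoters held one. These shares are descriptions of letters and were not tested, and a match is not evidence of binding. List genes that did not fall were not counted, so the shares cannot be tied to the fall itself.

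The 5 promoters below read 5′ to 3′ on the gene's strand, ending at the base before the start, with the motif letters in capitals. Top2a, Cks1b and Cdk1 are shown for mitotic genes with several CCAAT boxes and TTTGAA elements, Mcm5 for a replication gene with E2F sites, and Rag1 for a gene that rose, with 1 CCAAT box. Top2a lies at chr11:99024190-99024439 (minus strand), Cks1b at chr3:89418292-89418541 (minus), Cdk1 at chr10:69352913-69353162 (minus), Mcm5 at chr8:75109259-75109508 (plus) and Rag1 at chr2:101649533-101649782 (minus).
Top2a: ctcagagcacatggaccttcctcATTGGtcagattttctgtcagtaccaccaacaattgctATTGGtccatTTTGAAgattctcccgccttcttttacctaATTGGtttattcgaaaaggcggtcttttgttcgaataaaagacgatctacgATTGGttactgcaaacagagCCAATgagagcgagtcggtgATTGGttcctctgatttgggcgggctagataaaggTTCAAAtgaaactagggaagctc
Cks1b: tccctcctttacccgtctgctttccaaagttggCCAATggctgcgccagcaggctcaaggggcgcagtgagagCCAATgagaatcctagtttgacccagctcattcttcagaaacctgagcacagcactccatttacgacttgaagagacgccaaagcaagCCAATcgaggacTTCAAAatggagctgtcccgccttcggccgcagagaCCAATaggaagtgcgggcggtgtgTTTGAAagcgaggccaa
Cdk1: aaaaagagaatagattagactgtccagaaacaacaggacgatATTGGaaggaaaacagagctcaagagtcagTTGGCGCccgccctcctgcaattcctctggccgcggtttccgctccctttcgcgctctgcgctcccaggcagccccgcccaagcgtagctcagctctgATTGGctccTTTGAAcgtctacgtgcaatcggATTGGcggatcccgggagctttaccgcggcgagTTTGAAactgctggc
Mcm5: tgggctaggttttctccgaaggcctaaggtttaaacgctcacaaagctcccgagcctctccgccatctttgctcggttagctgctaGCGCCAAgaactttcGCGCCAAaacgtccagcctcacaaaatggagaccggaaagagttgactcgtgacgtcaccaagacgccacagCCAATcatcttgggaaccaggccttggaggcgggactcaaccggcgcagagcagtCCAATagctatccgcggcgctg
Rag1: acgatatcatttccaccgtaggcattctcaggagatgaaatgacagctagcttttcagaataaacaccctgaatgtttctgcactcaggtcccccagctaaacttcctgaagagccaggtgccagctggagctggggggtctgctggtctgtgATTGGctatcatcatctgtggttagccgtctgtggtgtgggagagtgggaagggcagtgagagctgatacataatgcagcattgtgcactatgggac
The Top2a window holds 6 CCAAT boxes and 2 TTTGAA elements, that of Cks1b 4 and 2, that of Cdk1 3 and 2 with 1 E2F site, and that of Mcm5 2 CCAAT boxes and 2 E2F sites. The Prc1 window holds 1 CCAAT box and none of the other motifs. The same holds for Racgap1 and Plk1, and the windows of Nusap1 and Tyms hold none of the motifs.

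Of 15 tested genes that control entry into S phase 5 fell, against 4.04% of all genes, and none rose. Ccnd3, the D cyclin of dividing pre-B cells, read 3607, 2268, 2244, 3769 and 2399.7 in small pre-BII cells, against 5973, 7555, 5247, 6073 and 4465 in large pre-BII cells. The groups did not overlap, and Ccnd3 fell 2.08-fold (log2 difference −1.05 ± 0.21 SE, adjusted p = 0.0031), by 2.35-fold within sorts 1 to 3 and 1.91-fold within sorts 8 to 10. Ccne1 fell at least 2.18-fold, its kinase Cdk2 3.01-fold, the pocket protein gene Rbl1 (p107) 4.66-fold and E2f8, a repressor of the E2F family, 7.75-fold. Cdk4 read 1550.1 in small cells and 3175 in large cells without passing (adjusted p = 0.164), and E2f1 and Rb1 did not pass either (adjusted p = 0.952 and 0.909).

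Of 16 tested genes of cell cycle inhibition and quiescence 2 rose and 2 fell, against 3.03% and 4.04% of all genes. Btg2, an antiproliferative gene, read 8329, 6629, 6003, 6073 and 6029 in small cells and 2337, 1684, 2218, 3160.4 and 2371 in large cells, with no overlap, and rose 2.84-fold (log2 difference 1.51 ± 0.17 SE, adjusted p = 1.71e-05). Its relative Btg1 rose 2.48-fold. Of the INK4 inhibitor genes Cdkn2c and Cdkn2d fell, while Cdkn2a was not among the genes that passed. Cdkn2c (p18), which binds Cdk4 and Cdk6, read 12.7, 479, 938, 1017 and 500.4 in small cells and 3495, 2576, 3424, 4715 and 3179 in large cells. It fell 6.04-fold (log2 difference −2.59 ± 0.39 SE, adjusted p = 0.00011). Cdkn2d (p19) fell 3.12-fold. Cdkn1b, which encodes the inhibitor p27, read 2219.9, 4534, 2860.2, 3753 and 3321 in small cells and 2574, 2147, 2948, 1836 and 1918 in large cells, with overlapping ranges (adjusted p = 0.241).

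The recombination genes moved one by one. Beside Rag1, Polm, a DNA polymerase that fills ends during light chain joining, rose: it read 9268, 11663, 7043, 5443 and 8543 in small pre-BII cells and 2251, 3591, 1942, 2608 and 4118 in large pre-BII cells, without overlap (2.91-fold, log2 difference 1.54 ± 0.28 SE, adjusted p = 0.002). Rag2, the second recombinase subunit, read 369, 627, 796, 585 and 412 in small cells and 235, 656, 719, −11.6 and −229 in large cells. It overlapped between the populations and did not pass (adjusted p = 0.283). Dntt, the terminal transferase of heavy chain joining, exceeded the noise limit in no small preparation and averaged 288 in large cells, against 8026 in pre-BI cells. Hmgb1 and Hmgb2, chromatin proteins that assist the recombinase, fell 1.73- and 10.6-fold. Of 9 tested genes of this list 2 rose and 2 fell, against 3.03% and 4.04% of all genes.

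Immunoglobulin genes other than Iglc1 did not pass. Of 4 tested light chain genes 1 rose, against 3.03% of all genes. Igkv4-91, a kappa variable gene, read 929.7, 417, 1152, 466 and 566 in small cells and 509, 150.1, 369, 463 and 82.4 in large cells, with overlap (adjusted p = 0.411), and the probe set named Igk exceeded the noise limit only in small sorts 8 and 9 (adjusted p = 0.353). None of 8 tested heavy chain genes passed in the limma fit, and 0 had an unadjusted p under 0.05. Of the surrogate light chain genes Igll1 (lambda 5) fell at least 1.48-fold, with large sorts 1, 8 and 9 at 385, 858 and 703 and all others under the noise limit; the call was lost with all values raised to that limit (adjusted p = 0.379). Vpreb3 read 10674, 9962, 13238, 14049.9 and 13534 in small cells and 6601, 5670.0, 7999, 6309 and 9962 in large cells. The lowest small preparation and the highest large one were equal at 9962, and Vpreb3 did not pass (adjusted p = 0.491).

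Genes of the B cell receptor and its signalling rose in 6 of 19 tested cases, against 3.03% of all genes, and none fell. Cd79a and Cd79b encode the signalling chains of the pre-B and B cell receptors. Cd79b read 11994, 13238, 11663, 9379.9 and 13036 in small pre-BII cells and 6156, 6510.0, 5099, 6344 and 6250.2 in large pre-BII cells, without overlap, and rose 1.95-fold (log2 difference 0.96 ± 0.11 SE, adjusted p = 0.00415). Cd79a read 3461, 3532, 3063, 1700.0 and 6627 in small cells and 1203, 1210.3, 634, 1360.3 and 2139.6 in large cells, where small sort 9 lay under large sort 10, and rose 2.75-fold (log2 difference 1.46 ± 0.42 SE, adjusted p = 0.00713). Both calls were lost in the values as deposited (adjusted p = 0.594 for Cd79b and 0.282 for Cd79a). The tyrosine kinase gene Syk rose 1.65-fold, lost in 8 of 10 fits that left out 1 preparation (adjusted p up to 0.13, without large sort 8), and Prkcd, a protein kinase C gene, rose 1.86-fold. Vav1, an exchange factor, rose 1.55-fold by its brightest probe set, and its other 2 did not pass and pointed in opposite directions.

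In the interleukin 7 receptor pathway 2 of 14 tested genes rose, against 3.03% of all genes, and none fell. Pim2, a survival kinase gene, read 1210.3, 1792, 1564, 2308 and 1662 in small cells, while no large preparation exceeded the noise limit (100.1, 82.4, 189, 168 and 123), and it rose at least 5.24-fold, by 2.39 ± 0.15 SE on the log2 scale (adjusted p = 6.93e-05). Jak1, a kinase bound to cytokine receptors, rose 2.54-fold. Il7r averaged 378 ± 207 in small cells and 444 ± 273 in large cells (SD, n = 5 each, adjusted p = 0.933). Stat3 and Socs1, which carry and brake cytokine signals, did not pass. Stat3 read 2878, 2830.1, 245, 604 and 845 in small cells and 989, 1193, 708, 89.3 and 945 in large cells, and small sorts 1 and 3 were the brightest of all.

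Among B lineage transcription factors 1 of 23 tested genes passed, against 7.07% of all genes. Myb, which encodes a regulator of lymphoid progenitors, read 10073, 11994, 12455, 18089 and 10453 in small pre-BII cells and 4815, 7089.6, 7089.6, 5224 and 5387 in large pre-BII cells and rose 2.11-fold (log2 difference 1.08 ± 0.19 SE, adjusted p = 0.0131). The groups did not overlap, a second probe set of Myb was under the noise limit in both, and the call was lost without small sort 9 (adjusted p = 0.0515). Irf4, a factor of light chain locus opening, read 2957, 5199.6, 1746, 8190.4 and 6743 in small cells and 2390.0, 3525, 2850.3, 2266 and 2808 in large cells. Small sorts 9, 10 and 3 lay above all large preparations while sort 8 lay below them, and Irf4 did not pass (adjusted p = 0.474). Irf8 differed 1.68-fold with an adjusted p of 0.0715, and Ebf1, Tcf4 and Pou2af1 did not pass at 1.17-, 1.26- and 1.59-fold.

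Survival and NF-kB target genes rose in part. Birc3, an inhibitor of apoptosis, read 1839, 2212, 1601, 1697 and 863 in small cells and 467, 305, 413, 124 and 163 in large cells, with small sort 10 the dimmest small preparation, and rose 4.81-fold (log2 difference 2.27 ± 0.29 SE, adjusted p = 3.48e-05). Mcl1, a Bcl-2 family survival gene, rose 2.47-fold and Casp9, an initiator caspase gene that promotes apoptosis, 1.77-fold. Of 17 tested survival genes 4 rose, against 3.03% of all genes, and none fell; Birc3 is counted here and in the next list, and Pim2 here and in the interleukin 7 list. Of 22 NF-kB and immediate-early genes 3 rose, against 3.03% of all genes: Birc3, Jund (2.09-fold) and Zfp36 (2.5-fold). Dusp1, a phosphatase gene, fell with all small and 3 of 5 large preparations under the noise limit. A second probe set of Jund was higher in small cells without passing. Nfkbia, the inhibitor that NF-kB itself induces, did not overlap and did not pass by its brightest probe set (6209 in small cells and 3545 in large cells, adjusted p = 0.0585), while its second one rose 1.88-fold (adjusted p = 0.0163).

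The largest rises after Iglc1 were in genes of varied roles. Reln, the secreted glycoprotein reelin known from neuronal migration, read 1199, 2046, 1921, 3326 and 1620.1 in small pre-BII cells, while every large preparation was under the noise limit (94.4, 111, 165, 121 and 79.0). Reln rose at least 7.6-fold, by 2.93 ± 0.24 SE on the log2 scale (adjusted p = 5.38e-10), and its mean was 11.8 in pre-BI, 203 in immature and −29.0 in mature B cells, against 2022 in small pre-BII cells. Evl, an Ena/VASP actin regulator, read 3922, 3051, 4273, 2436 and 2576 in small cells and 1052, 357, 365, 11.4 and 479 in large cells and rose 7.21-fold (log2 difference 2.85 ± 0.38 SE, adjusted p = 8.99e-06). Lsp1, a leukocyte actin-binding protein, rose 5.67-fold and Samhd1, which degrades deoxynucleotides, 5.42-fold.

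Of the remaining leading rises Spin1, a reader of methylated histones, rose 5.17-fold, and Slc25a53, of the mitochondrial carrier family, 5.04-fold. Abca1, a cholesterol exporter, rose 4.75-fold, Selenop, a selenium carrier, 4.03-fold, and Ube2h, a ubiquitin-conjugating enzyme, 4-fold. Second probe sets of Abca1 and Selenop did not pass. In all 15, the 5 small preparations lay above the 5 large ones, as the rule for naming them requires.

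Surface genes rose in 10 of 35 tested cases, against 3.03% of all genes, and none fell. Cd2, an adhesion receptor, read 3757, 3043, 863, 1374 and 3405 in small cells and 746, 167, 116, 226 and 619 in large cells. Sorts 1 and 10 were among the bright preparations of both populations, small sort 8 lay just above large sort 1, and Cd2 rose 4.99-fold (log2 difference 2.32 ± 0.50 SE, adjusted p = 0.00274). Ly6d, a glycosylphosphatidylinositol-anchored protein of B lineage progenitors, read 9015, 12162, 9811, 8889 and 8222 in small cells and 2158, 3283, 2179, 2284 and 2110.2 in large cells and rose 4.03-fold (log2 difference 2.01 ± 0.15 SE, adjusted p = 1.57e-07). Cd53, Cd37, Cd1d1 and S1pr1 rose 2.25-, 3.23-, 2.84- and 2.28-fold, the last of which encodes the sphingosine 1-phosphate receptor of marrow exit. The call of Itgb2, the CD18 integrin gene, was lost in 9 of 10 fits that left out 1 preparation and that of Cd37 in 5.

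Antigen presentation genes did not move together. Of 12 tested MHC class II pathway genes 4 rose, against 3.03% of all genes. Cd74, the invariant chain, read 5645, 3283, 3922, 4059 and 3693 in small cells and 1832, 1700.0, 984, 1196 and 1478 in large cells and rose 2.89-fold (log2 difference 1.53 ± 0.21 SE, adjusted p = 0.00951). Ctss, the protease that trims it, rose 3.28-fold and H2-Ob, another gene of the pathway, 2.28-fold. The class II chain genes H2-Aa and H2-Ab1 were lower in small cells without passing by their brightest probe sets: H2-Aa averaged 1478 in small cells and 2541 in large cells, and H2-Ab1 168 in small cells and 997 in large cells, without overlap between populations in either gene (adjusted p = 0.331 and 0.0799). Of 4 other H2-Aa probe sets 1 fell (1.64-fold, adjusted p = 0.0401), while H2-Eb1, another chain gene, averaged 696 in small cells and 592 in large cells by 1 probe set (adjusted p = 0.855) and exceeded the noise limit in 1 of 10 preparations by the other. Of class I pathway genes Tapbp, the tapasin gene, rose 2.35-fold. Psmb9, an immunoproteasome subunit, fell 1.71-fold, lost in 7 of 10 fits that left out 1 preparation. The class I chain genes H2-D1 and H2-K1 were higher in small cells without passing by their brightest probe sets (adjusted p = 0.862 and 0.0613). By another probe set H2-D1 rose 1.83-fold (adjusted p = 0.000955) and H2-K1 1.85-fold (adjusted p = 0.0326). Of the remaining H2-D1 probe sets, a bright member was higher in small cells without passing (adjusted p = 0.0865). A dim member stayed under the noise limit in both populations.

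Housekeeping lists held few changed genes. Of 42 tested ribosomal protein genes 1 fell (Rpsa, 1.58-fold), of 51 oxidative phosphorylation genes 1 rose (Cox7a2l, 1.71-fold), and of 31 proteasome, 28 chaperone, 38 splicing and 29 nucleolar and translation genes 3 each fell and none rose. The shares that fell ran up to 10.7% (chaperones), beside 4.04% of all genes. The proteasome genes that fell, Psmb9, Psmc1 and Psmc3, lost their calls in 7, 7 and 5 of 10 fits that left out 1 preparation. The splicing genes that fell were Hnrnpab (2.55-fold), Snrpe (1.44-fold, lost in 6 of 10 fits that left out 1 preparation, with an adjusted p of up to 0.0876 without small sort 1) and Srsf4 (4.53-fold), and the chaperones Hsp90aa1 (2.03-fold), Dnajb1 (1.84-fold) and Ppia (1.64-fold). Of 12 glycolysis genes Aldoa rose 2.39-fold, lost in 8 of 10 fits that left out 1 preparation, and Gapdh fell 1.88-fold. Scd1 and Scd2, fatty acid desaturase genes, rose 4.35- and 2.66-fold. Scd1 read 623, 1518, 1487, 4373 and 1563 in small cells, with sort 9 highest, and 265, 225, 655, 457 and 309 in large cells, where large sort 8 exceeded small sort 1. Bub1, Kif2c, Prkcd, Cd53, Psmb9, Rpsa, Cox7a2l and Dnajb1, which passed by their brightest probe sets, each had another, above the noise limit in at least 1 preparation, that did not pass and differed in the same direction.

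Over the 5 stages, mitotic transcripts were highest in large pre-BII cells. Of the 46 mitotic genes that fell, all 46 had their highest population mean in large pre-BII cells, above pre-BI cells. The median over all 58 tested mitotic genes, relative to large pre-BII cells and on log2 values raised to the noise limit, was −0.87 in pre-BI cells, −2.08 in small pre-BII cells, −2.34 in immature B cells and −2.19 in mature B cells. For the 40 tested replication genes the median was −0.14 in pre-BI cells and −1.08 in small pre-BII cells, and 18 of the 25 that fell had their highest mean in large pre-BII cells. Of the 152 genes that rose, 68 had their highest mean in small pre-BII, 36 in immature, 44 in mature and 4 in pre-BI cells. Mean Rag1 was 2332 for pre-BI cells, 1207 for large and 5182 for small pre-BII cells, 123 for immature and −38.6 for mature B cells. Mean Iglc1 was 899 for pre-BI cells, 323 for large and 5409.7 for small pre-BII cells, 7357 for immature and 2118 for mature B cells. These orders are descriptions, since the genes were chosen for the difference between small and large cells.

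**Figure D3:**
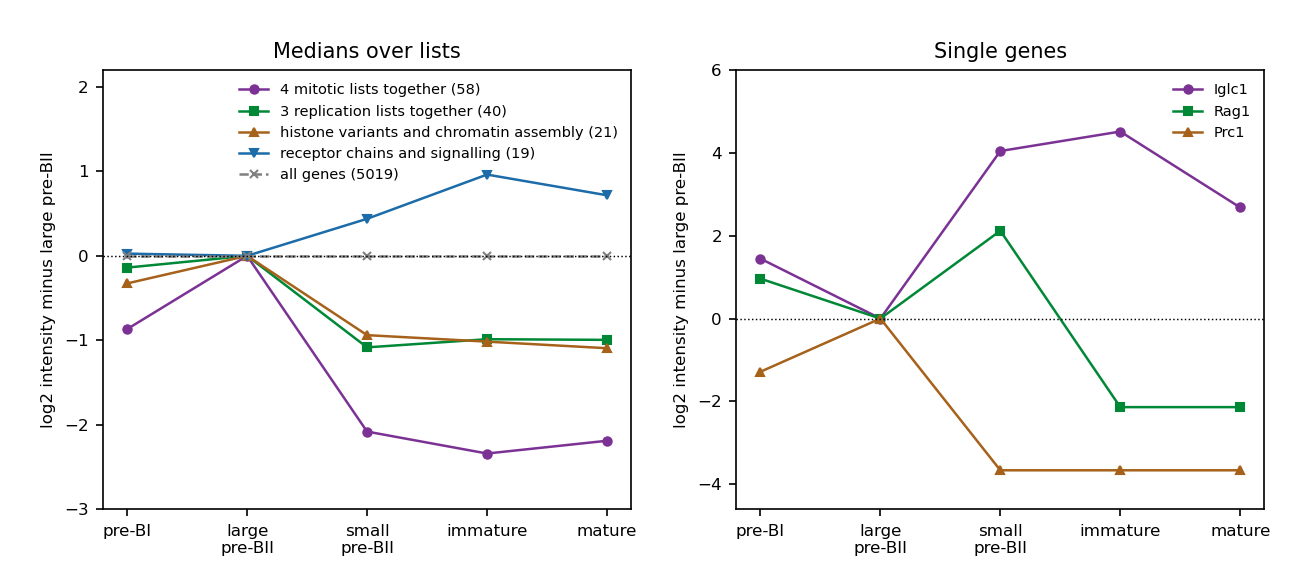
Log2 intensity relative to large pre-BII cells (y axis) over the 5 populations in order of development (x axis), on values raised to the noise limit; left, medians over the tested genes of 4 lists (number of genes in brackets) and all genes, and right, 3 single genes as means of 5 or 6 preparations. The mitotic lists are at −0.87 in pre-BI and −2.08 in small pre-BII cells, while Rag1 peaks in small pre-BII cells at 2.12.

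Sorts 1 to 3 and sorts 8 to 10 stood apart in a control for 18S ribosomal RNA, whose 5′ probe set read 5603 to 13510 on the small and large pre-BII arrays of sorts 1 to 3 and −224 to 68 on those of sorts 8 to 10. The other populations did not all follow this split. On the first array set pre-BI sort 2 read 483, immature sort 2 read 156 and mature sort 3 read 307. Each population was present in both sort groups, so every difference could be read within each. With the sort group as a block 637 probe sets changed, within sorts 1 to 3 (2 small, 2 large) 117 and within sorts 8 to 11 (3 small and 3 large, from sorts 8 to 10) 353. The block divides all preparations of the fit by sort number, so it does not follow the 18S control in the other populations. Of 164 named genes that passed, 162 had the same sign in both groups on values raised to the noise limit, the other 2 lying under it within sorts 1 to 3. These genes passed on both groups together, so the choice favours agreement in sign, which is not a separate test. List medians of the fits within sorts 1 to 3 and 8 to 11 were −2.92 and −2.46 for mitotic kinases, −3.3 and −3.2 for the spindle, −1.92 and −2.12 for origin licensing, 0.617 and 0.655 for receptor signalling and 0.383 and 0.619 for surface genes.

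**Figure D4:**
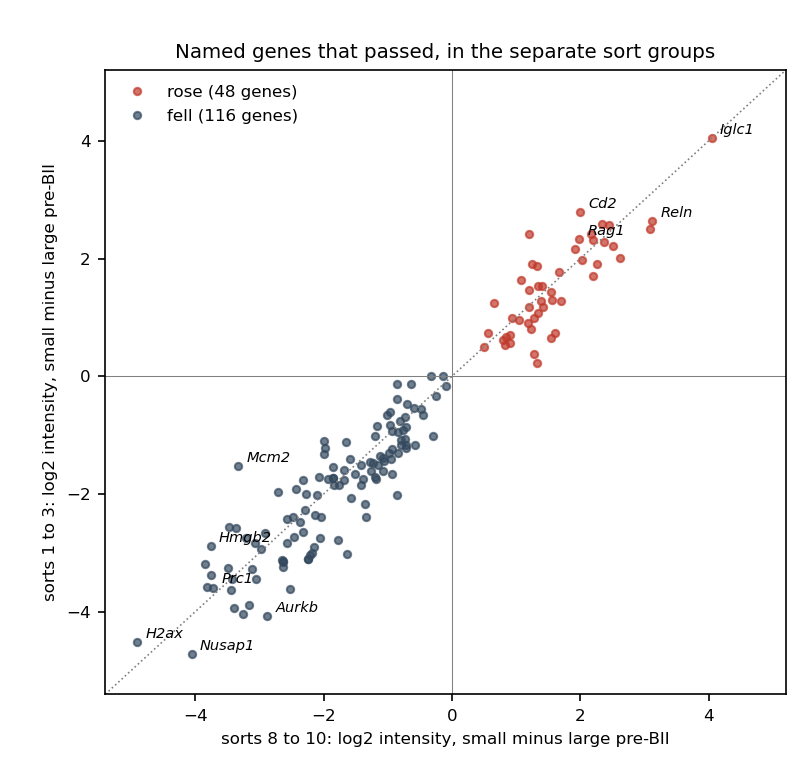
Log2 difference, small minus large pre-BII, of the 164 named genes that passed, within sorts 8 to 10 (x axis) and within sorts 1 to 3 (y axis), on values raised to the noise limit; red genes rose and dark blue genes fell over all preparations. Points follow the dotted line of equality, with Mcm2 above it and Aurkb below it. The genes were chosen by the difference over both groups together.

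Markers of other cell types were few among the genes that passed, and 7.07% of all tested genes passed. Of 9 tested erythroid markers none passed (2 at an unadjusted p under 0.05), their summed level was 7922 to 17075 in small and 13874 to 23457 in large preparations, small sort 3 was the lowest, and Gata1, an erythroid transcription factor gene, was under the noise limit in both populations. Hbb-b2, a beta globin gene, averaged 2793 ± 916 in small cells and 5110.0 ± 1762 in large cells (SD, n = 5 each, adjusted p = 0.192). Of 16 granulocyte and monocyte markers none passed (2 at an unadjusted p under 0.05), the summed level was 4846 to 6832 in small and 5088 to 12114 in large preparations, large sort 10 was the highest, and Mpo, Csf1r and Csf3r were under the limit in both populations. Lyz2, the lysozyme gene of myeloid cells, read 2361, 2199, 1357, 1364 and 1625 in small cells and 2523, 1882, 2841, 2452 and 5467 in large cells (adjusted p = 0.137). Of 12 T and NK cell markers 1 fell, Gzma, a cytotoxic protease gene (at least 1.15-fold). None of 12 stromal, 4 plasma cell, 9 mature B cell and 4 megakaryocyte, mast and dendritic cell markers passed (0, 0, 2 and 0 at an unadjusted p under 0.05), and of 8 pre-BI markers Igll1 fell. The part of these cells in any difference above was not tested.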

How the data were processed

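RNA of 26 sorted preparations was read on 55 arrays of 2 probe sets (6584 and 6595 probe sets). The authors deposited 1 value table per array set, in intensity on a linear scale with values below 0; the steps from the scans to those intensities are not given in the sources used here. A mature B cell array whose values equalled those of another was dropped. From each set, 55 control probe sets were removed, arrays were quantile normalised, values were raised to the 40th percentile of the table (87.6 and 6.89), log2 was taken, arrays of 1 preparation were averaged (the second array of large pre-BII sort 1 included), and probe sets exceeding the floor in 5 or more preparations were kept (5019 and 5210). limma 3.58.1 (R 4.3.3) with a mean-dependent prior fitted all 26 preparations by population, and Benjamini-Hochberg adjustment ran over both sets together. The adjusted p-values come from that fit, while printed folds come from values raised to the higher noise limit. The test was also tried on simulated data, with normal noise of each probe set's own spread within populations. It recovered 8 of 100 added changes of log2 size 1 and 47 of 100 of log2 size 2, with 2 false calls. The changes were put on fewer probe sets than passed in the data, drawn at random whatever their brightness. The noise was independent between preparations, so these figures need not hold for the data. A gene that did not pass may still differ.

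A gene was represented by its brightest probe set with 1 symbol in the platform annotation; of 13069 probe sets 7542 had 1 symbol, 224 several and 5303 none. The named genes are Prc1, Rag1, Iglc1, the gate genes Ptprc, Il2ra, Kit and Ighm, the 15 largest rises and 15 largest falls among genes that passed, differed at least 2-fold and did not overlap, and members of 40 lists. The comparison, its members and the lists were chosen with earlier results of these data known. The number of arrays limits the precision. Alternatives covered scaling, floor, filter, the samples in the fit, the sort groups, a sort number block, the second array and leaving out each preparation; fitting each array set on its own was added after seeing the data.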

Additional observations from a re-analysis of the deposited data

Results flagged for a closer look

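In 39 genes whose values are given for every preparation, 78 groups of 5 were searched for a preparation far from the others. Dixon's ratio on log2 values raised to the noise limit was used. Groups lying wholly at that limit, such as Prc1 in small cells and Reln in large cells, have no range and could not be flagged. Among groups with a range chance flags about 5%, and 2 stood out. Ly6d in large pre-BII sort 2 read 3282.9, against 2110.2 to 2284.3 in the other large preparations. Cd79b in large pre-BII sort 8 read 5099.3, against 6155.5 to 6510.0 in the others.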

How the results depend on the processing

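No named gene that passed changed sign under any alternative tried. On unnormalised values as deposited, 201 changed (42 higher, 159 lower), and 77 of 164 named calls were kept. Within sorts 1 to 3 there were 117 (27 higher, 90 lower) and within sorts 8 to 11 there were 353 (142 higher, 211 lower); these fits hold fewer preparations. With small and large pre-BII cells alone, 147 were higher and 251 lower. Otherwise the count ran from 472 with the 25th-percentile floor to 645 with the 60th-percentile floor, apart from the block below. Leaving out 1 preparation gave 490 to 559 changed probe sets, 188 to 238 higher and 282 to 323 lower, and kept 143 to 154 of the 164 named calls. At least 1 such fit lost the calls of 31 named genes. Beside those given above, Wipf1 was lost in 9, Ctps and Ncl in 7, Pold1 in 6 and Ctsb, Cdt1 and Gsn in 5. Dusp1 and Cbx1 were lost in 4, Rpsa, Ly86 and Vav1 in 3, Casp9, Bub3, Brca1, Ube2s and Chek1 in 2 and Gzma, Jund and Zfp36 in 1. Adjusted p-values of these genes ran up to 0.145 (Ncl without small sort 8). Where fitted values rest on signal under the noise limit they moved more: without small sort 9 the fitted log2 difference was −8.61 for Top2a (−7.64 with it) and −4.44 for Igll1 (−3.61 with it). The sort number as a replicate block gave 769 (353 higher, 416 lower), but deviations of same-numbered small and large sorts (1, 8, 9 and 10) correlated at 0.246, 0.0035, 0.064 and 0.032, so the numbers were not taken to pair the samples. Another scaling moved the share of higher calls to 49.0% (trimmed mean) and 33.8% (75th percentile), against 41.9%. List medians changed sign under at least 1 scaling for the IL-7 receptor pathway, MHC class I, ribosomal protein genes and stromal markers, and for glycolysis in the values as deposited alone. Levels under the noise limit have no order, and 40.02% of values in the first array set and 20.1% in the other exceeded it.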
